A study of Mus musculus and Homo sapiens with 10 samples.

Results

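The transcripts described here are those of 10 feedback and target genes of the ERK and WNT pathways, which serve as a readout of the 2 inhibitors in 2i media. They were taken by symbol from the deposited gene table, which holds 25899 genes for mouse embryonic stem cells (mESCs), and all 10 were found. 6 belong to the ERK arm (Dusp6, Spry2, Spry4, Etv4, Etv5 and Egr1) and 4 to the WNT arm (Axin2, Lef1, Cdx1 and T). The same symbols in upper case were found for human embryonic stem cells (hESCs), in a table of 35720 genes. All 10 mouse genes passed the filter on low values, which kept 14631 genes.

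RNA-seq was done on 8 libraries of E14 mESCs, an established mouse line, all grown without feeders in 2i media with LIF at 1000 U/mL, PD-035901 at 1 µM and CHIR-99021 at 3 µM. The 4 control cultures carry the labels 10, 11, 35B and 35C, and the 4 cultures given vitC at 100 µg/ml for 24 h carry the same 4 labels. The 2 hESC libraries, both labelled 43 and H9, are 1 control and 1 treated with the same dose and time of vitC, in medium with bFGF at 10 ng/ml and neither inhibitor. The paper says that primed hESCs were sequenced, and its methods describe more than 1 such culture. H9-NK2, which carries inducible KLF2 and NANOG transgenes, was kept in the medium with bFGF at 10 ng/ml. Primed H9 was kept in conditioned medium with another dose of bFGF. Which of these was sequenced is not stated beyond the label H9. The labels do not say what separates cultures 10 and 11 from 35B and 35C, nor whether each comes from its own thaw or passage, so p-values measure the spread between these libraries, part of which may be technical.

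In ERK signalling, a growth factor such as FGF4 activates a receptor, RAS and a chain of kinases that ends in MEK and ERK, which induces both transcription factors and its own inhibitors. PD-035901 is the MEK inhibitor of 2i, so transcripts of these inhibitors and factors are a common readout of what ERK activity is left. In WNT signalling, β-catenin is marked for destruction by a complex that holds AXIN, APC and GSK3, and when it escapes it joins TCF/LEF factors on DNA. CHIR-99021 inhibits GSK3 and so spares β-catenin, and Axin2, Lef1, Cdx1 and T are well-known genes that then go up in mESCs.

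Gene reads recovered from the deposited values numbered 3354852 to 6921305 per mESC library, and 15367652 and 17188555 in the hESC libraries. Every one of 9 ESC markers had reads in every mESC library, with a summed level of 5333 to 5951 RPM (a gene's reads per 1000000 gene reads of its library). Lists of primitive streak, primitive endoderm, feeder fibroblast and 2-cell-like markers each summed to at most 16.8 RPM in any mESC library. In the hESC libraries, the 9 ESC markers summed to 541 and 549 RPM, in control and vitC. POU5F1 was at 67.3 and 68.2 RPM and SOX2 at 353 and 354, while ESRRB, KLF2, TFCP2L1 and TBX3 were each at 1.98 RPM or less in both libraries. The fibroblast list, all 7 genes of it with reads, summed there to 1819 and 1702 RPM, led by COL1A1 at 1182 and 1098, and a list of 6 primed epiblast markers to 780 and 751, with reads for all of them but FGF5. The part of such other transcripts in the human values was not tested. Since these are bulk samples, fewer cells of a type and less RNA per cell cannot be told apart.

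The 250 bases before the start site are shown for T, Lef1 and Axin2, WNT genes whose levels separated the cultures, and for Spry2, which had the largest difference with vitC of the ERK arm on the scale of the deposited values. RefSeq windows of GRCm38.p6 were found for 6 of the 10 genes. The T window is chr17:8434173-8434422 on the plus strand. That of Lef1 is chr3:131156044-131156293 on the plus strand, for 1 of its 4 annotated starts. This start lies inside the gene, which begins at 131110471. The Axin2 window is chr11:108920099-108920348 on the plus strand, and that of Spry2 is chr14:105896820-105897069 on the minus strand. Capitals mark matches to 1 form of the TCF/LEF core, CTTTGA, searched on both strands, where the other strand reads TCAAAG. Other forms of the core were not searched.
T: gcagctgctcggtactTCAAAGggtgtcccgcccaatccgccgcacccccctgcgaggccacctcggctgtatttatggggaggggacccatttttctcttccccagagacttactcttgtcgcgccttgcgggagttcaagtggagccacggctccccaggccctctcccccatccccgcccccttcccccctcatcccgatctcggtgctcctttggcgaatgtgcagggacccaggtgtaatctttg
Lef1: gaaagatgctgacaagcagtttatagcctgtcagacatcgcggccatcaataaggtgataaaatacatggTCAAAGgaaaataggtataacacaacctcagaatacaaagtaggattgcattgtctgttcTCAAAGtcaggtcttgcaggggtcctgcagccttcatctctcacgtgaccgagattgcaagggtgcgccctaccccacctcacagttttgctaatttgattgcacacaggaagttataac
Axin2: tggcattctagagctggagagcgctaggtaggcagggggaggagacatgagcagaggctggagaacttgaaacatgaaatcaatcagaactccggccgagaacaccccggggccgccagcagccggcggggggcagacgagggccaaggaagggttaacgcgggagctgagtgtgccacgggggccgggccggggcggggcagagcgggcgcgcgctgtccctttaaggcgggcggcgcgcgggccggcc
Spry2: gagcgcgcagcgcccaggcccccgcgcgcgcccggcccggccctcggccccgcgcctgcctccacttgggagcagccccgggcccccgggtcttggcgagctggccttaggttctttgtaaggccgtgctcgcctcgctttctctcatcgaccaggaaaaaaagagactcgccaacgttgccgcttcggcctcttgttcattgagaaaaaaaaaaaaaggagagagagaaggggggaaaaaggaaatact
The T window held 1 match, at position -234 counted from the start, and the Lef1 window held 2, at -180 and -120. Neither the Axin2 nor the Spry2 window held any, nor did the other 3 Lef1 windows, and 13.8% of all 32851 promoter windows of this length held at least 1. The ETS core CCGGAA, also searched on both strands and present in 12.0% of the windows, was in none of the 10 windows found for these genes. A match is a description of the letters and not evidence of binding, and these windows leave out distant elements.

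All 10 transcripts were detected in every library of 2i-grown mESCs, and their levels spanned a wide range. Per length of exon, as RPKM (RPM divided by the exon length in kb), Etv5, an ETS transcription factor, stood highest, with 89.3 ± 8.10 RPKM (SD, n = 8), followed by Spry2, a Sprouty inhibitor of receptor signalling, with 55.8 ± 9.84. Axin2, a scaffold of the destruction complex and a negative feedback gene of WNT, had 50.5 ± 23.5, which did not differ from Spry2 beyond its spread. Cdx1, a caudal homeobox factor, had 13.1 ± 8.54, and the ERK phosphatase gene Dusp6 had 9.96 ± 1.19. Lef1, a DNA-binding partner of β-catenin, had 8.34 ± 6.82. Below these lay Etv4, an ETS factor related to Etv5, with 5.12 ± 2.13, and Spry4, the other Sprouty gene, with 5.11 ± 1.43. T (brachyury), a mesoderm factor, had 4.72 ± 4.30, and Egr1, an immediate-early zinc finger factor, had 4.71 ± 3.73. Etv5 lay above Spry2 in every library, while from Spry2 downwards the ranges of all neighbours in this order overlapped. The order differed between cultures: Axin2 was above Spry2 in 10 and 11 (mean 71.2 and 59.9 RPKM) and below it in 35B and 35C (29.9 and 51.7), Cdx1 was above Dusp6 (20.1 and 9.98) and then below it (6.09 and 9.94), and T was above Spry4 (8.71 and 5.36) and then below it (0.727 and 4.86).

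**Figure D1:**
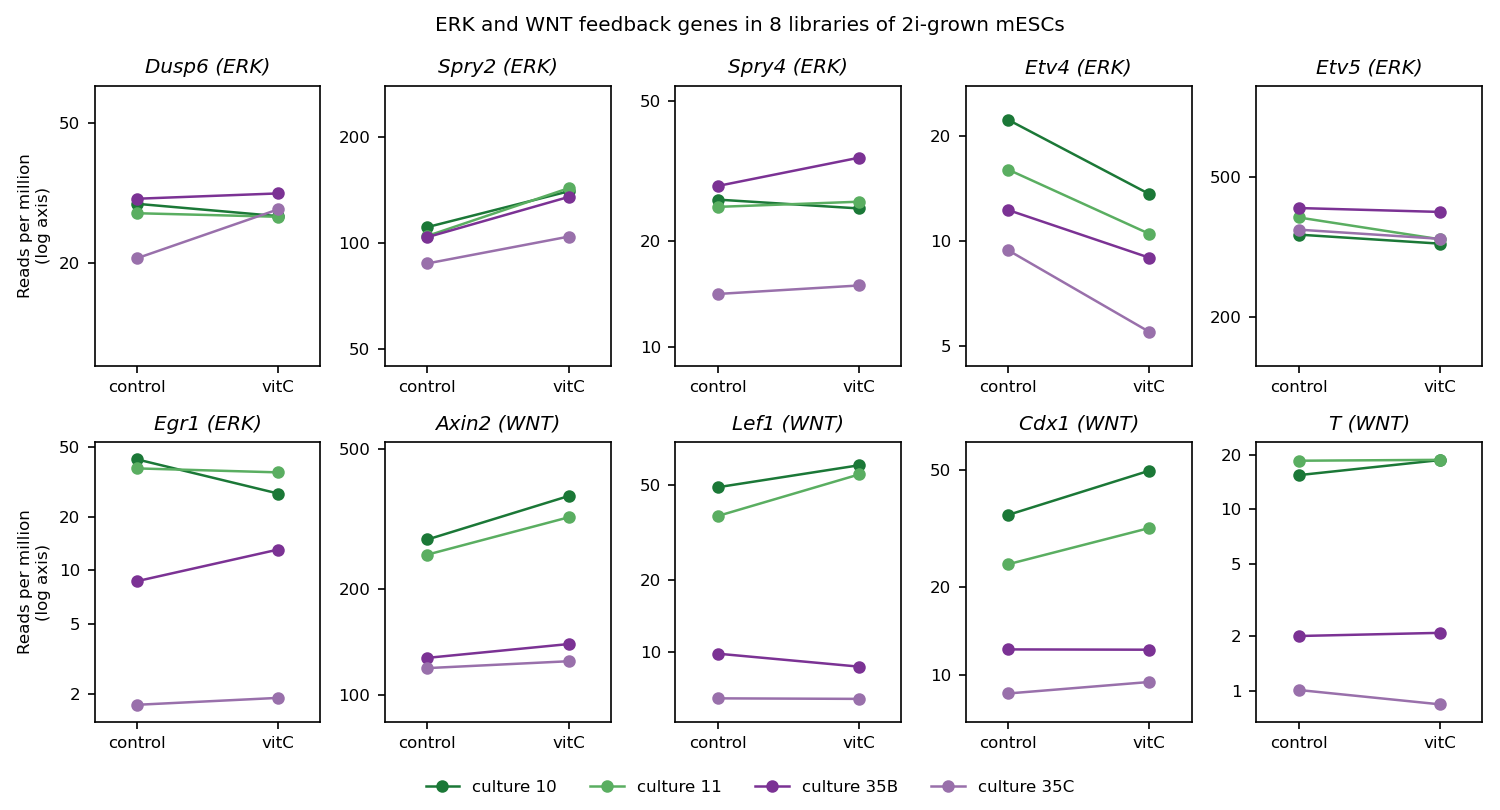
The 10 genes, in RPM (log axis, scaled separately for each gene), in each mESC library, with the control and the vitC library of a culture joined by a line. The 4 WNT genes and Egr1 separate cultures 10 and 11 (green) from 35B and 35C (purple), while Etv4 lies lower and Spry2 higher with vitC in each culture.

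The first comparison asks whether 24 h of vitC moved these transcripts in 2i. Spry2 and Axin2 were higher and Etv4 was lower with vitC in all 4 cultures, and these 3 were past the threshold once libraries were compared within cultures. In the unpaired limma fit, none of the 10 passed an adjusted p of 0.05, against 0.321% of all genes tested that were higher and 0.0205% that were lower. With a block for the replicate number, called the paired fit here because it sets each vitC library against its own control, 2 were higher, against 6.36% of all genes, and 1 was lower, against 4.44%. The unpaired fit counts the difference between cultures as error, and for the WNT genes that difference was large.

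Spry2 stood at 111, 105, 104 and 87.6 RPM in control cultures 10, 11, 35B and 35C, and 140, 143, 135 and 104 in the vitC cultures in the same order. Only the vitC library of 35C fell within the control range, and the ratio of vitC to control was 1.19 to 1.37. On the variance-stabilised scale, which is log2-like, the difference was 0.30 (standard error 0.04, 95% interval 0.21 to 0.39, limma adjusted p = 0.000107 with the replicate block, 0.424 without it). Sprouty proteins dampen signalling from receptors to ERK. Spry2 stayed past it when any pair of libraries was left out, with adjusted p up to 0.00255.

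Etv4 went the other way. It stood at 22.2, 16.0, 12.2 and 9.39 RPM in the controls of 10, 11, 35B and 35C, and 13.6, 10.5, 8.94 and 5.48 with vitC. The groups overlapped because cultures 10 and 11 started higher, yet within each culture the ratio of vitC to control was below 1, from 0.584 to 0.730. The difference fell by 0.26 on the variance-stabilised scale (standard error 0.05, 95% interval -0.37 to -0.15, limma adjusted p = 0.00404 with the block, 0.720 without). With few reads, 26 to 137 per library, this scale compresses the change, and edgeR on recovered reads with the block put the log2 fold change at -0.64, with an edgeR adjusted p of 0.000444. The limma call held without any 1 pair, with adjusted p up to 0.0466. Its relative Etv5 stood at 343, 384, 408 and 355 RPM in control and 324, 333, 398 and 334 with vitC. Etv5 was thus lower in each of the 4 pairs, but by 0.09 only (standard error 0.04, 95% interval -0.16 to -0.01, limma adjusted p = 0.138 with the block), and did not pass the threshold.

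Axin2 stood at 276, 250, 127 and 119 RPM in the controls of 10, 11, 35B and 35C, and 367, 319, 139 and 124 with vitC. The ratio of vitC to control was 1.33 and 1.28 in cultures 10 and 11, and 1.09 and 1.05 in 35B and 35C. Over the 4 pairs the difference was 0.23 (standard error 0.05, 95% interval 0.12 to 0.33, limma adjusted p = 0.00501 with the block, 0.941 without). This call rested in part on culture 10: without that pair the difference was 0.17 (limma adjusted p = 0.0741). Within cultures 10 and 11 alone the difference was 0.36 (limma adjusted p = 0.0577, without the block), and within 35B and 35C it was 0.09 (limma adjusted p = 0.673, without the block).

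Limma called none of the other WNT genes with vitC. Cdx1 stood at 35.2, 23.9, 12.2 and 8.67 RPM in control and 49.8, 31.7, 12.2 and 9.49 with vitC, and the paired difference came to 0.16 (95% interval 0.04 to 0.28, limma adjusted p = 0.0910 with the block). Lef1 stood at 49.1, 37.2, 9.80 and 6.36 in control and 60.8, 55.6, 8.64 and 6.32 with vitC, and the paired difference came to 0.14 (95% interval 0.00415 to 0.28, limma adjusted p = 0.184 with the block). Both are low in 35B and 35C, and edgeR on recovered reads with the block called both, at log2 fold changes of 0.37 for Cdx1 and 0.36 for Lef1, with edgeR adjusted p of 0.00884 and 0.00748. With the block, edgeR thus called 4 of the 10 higher, against 7.24% of all genes, and 1 lower, against 6.07%. T stood at 15.4, 18.5, 2.00 and 1.01 in control and 18.6, 18.7, 2.09 and 0.843 with vitC, and its difference was 0.03 (95% interval -0.09 to 0.15, limma adjusted p = 0.769 with the block).

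Dusp6, Spry4 and Egr1 were past the threshold in no fit of the vitC comparison. Dusp6, which encodes a phosphatase that removes the activating phosphates from ERK, stood at 29.5, 27.8, 30.5 and 20.7 in control and 27.2, 27.1, 31.6 and 28.5 with vitC. Its difference was 0.06 (95% interval -0.06 to 0.17, limma adjusted p = 0.579 with the block), and only the control of 35C stood apart from the others. Spry4 stood at 26.3, 25.1, 28.7 and 14.2 in control and 24.8, 25.9, 34.6 and 15.0 with vitC, so that both libraries of 35C were low. Its difference was 0.05 (95% interval -0.06 to 0.16, limma adjusted p = 0.592 with the block). Egr1 stood at 42.5, 37.8, 8.69 and 1.73 in control and 27.2, 35.9, 13.1 and 1.90 with vitC, lower in cultures 10 and 11 and higher in 35B and 35C. Its difference was -0.04 (95% interval -0.19 to 0.11, limma adjusted p = 0.790 with the block).

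**Figure D2:**
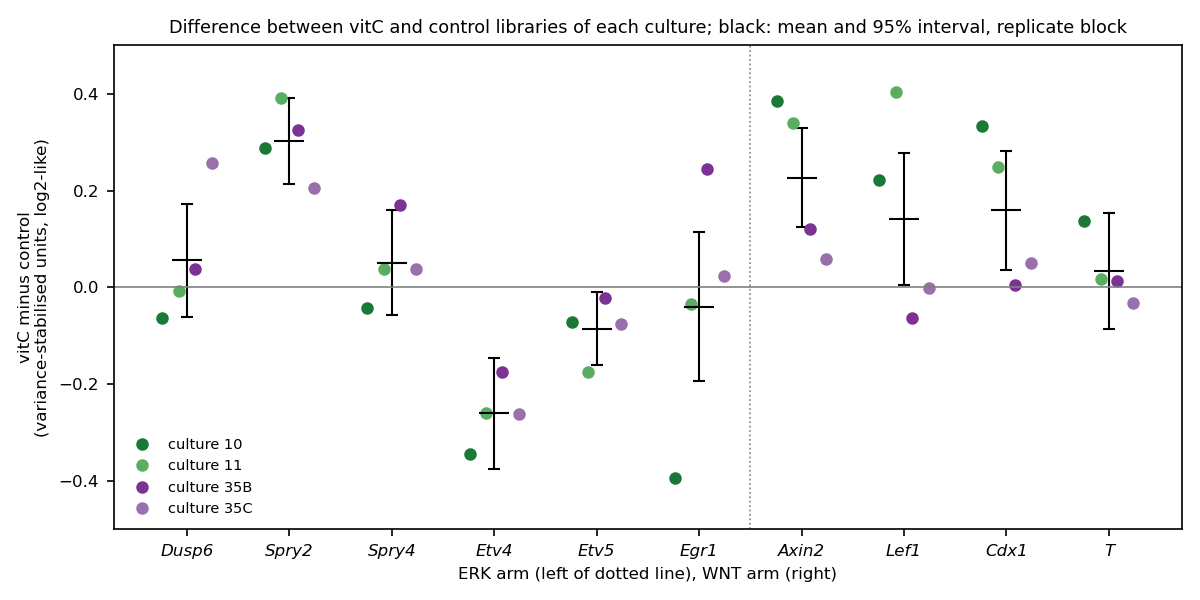
Difference between the vitC and the control library of each culture for the 10 genes, in variance-stabilised units, with 1 point per culture and the mean and 95% interval of the paired fit in black. All 4 points lie above 0 for Spry2 and Axin2 and below 0 for Etv4 and Etv5, and Axin2, Lef1 and Cdx1 have their larger values in cultures 10 and 11.

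Whether vitC acted differently in the culture sets was tested as an interaction, and none of the 10 genes passed it. Without the block, 0% of all genes passed in limma (601 at an unadjusted p under 0.05), and edgeR and DESeq2 passed none either (529 and 113 at an unadjusted p under 0.05). With the block, 0.0889% did. For Axin2, the vitC difference in 35B and 35C was smaller by 0.27 than in 10 and 11 (value -0.27, 95% interval -0.43 to -0.12, limma adjusted p = 0.272 with the block). For Lef1 the value was -0.35 (95% interval -0.56 to -0.13, limma adjusted p = 0.405) and for Egr1 it was 0.35 (95% interval 0.10 to 0.60, limma adjusted p = 0.533), again with the block. None of these held after adjustment over all genes.

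The second comparison sets cultures 35B and 35C against 10 and 11, with vitC as a covariate. All 4 WNT genes and the ERK genes Egr1, Etv4 and Spry2 were lower in 35B and 35C, and none of the 10 was higher. Over all genes tested, 21.5% were lower and 18.9% were higher by the same rule (limma, adjusted p below 0.05). This fit counts the 8 libraries as independent, although each set holds 2 cultures with a control and a vitC library each. With 1 library per culture, the 4 WNT genes and Egr1 were called lower in the control libraries alone and in the vitC libraries alone. Etv4 was called in the control libraries (limma adjusted p = 0.0345) and lost in the vitC libraries (0.0774), and Spry2 was lost in both (0.220 and 0.134). In RPM, every library of 10 and 11 was above every library of 35B and 35C for the 4 WNT genes and for Egr1, a separation that 16% of all genes showed (the reverse order held for 16.3%). The culture sets differ in more than these transcripts: ribosomal repeats took 42.0% to 51.5% of the repeat counts in 10 and 11 and 60.0% to 63.1% in 35B and 35C. The part of that difference in the gene values was not tested.

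T showed the largest ratio. Its mean was 17.8 RPM in 10 and 11 (15.4 to 18.7) and 1.49 in 35B and 35C (0.843 to 2.09, from 4 to 9 reads), a ratio of 12.0. On the variance-stabilised scale, which compresses such low values, the difference was -1.11 (standard error 0.06, limma adjusted p = 2.93e-10). Lef1 had a mean of 50.7 against 7.78 RPM, a ratio of 6.51 (difference -1.40, standard error 0.08, limma adjusted p = 1.7e-10). Cdx1 had 35.2 against 10.7, a ratio of 3.30 (difference -0.87, standard error 0.09, limma adjusted p = 3.7e-07). Axin2 had 303 against 127, a ratio of 2.38 (difference -1.11, standard error 0.06, limma adjusted p = 1.61e-10). The 4 genes had this order in the control libraries alone, where the ratios were 11.2 for T, 5.34 for Lef1, 2.82 for Cdx1 and 2.14 for Axin2. They had it in the vitC libraries too, where the ratios were 12.8, 7.78, 3.76 and 2.60.

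In the ERK arm, only Egr1 had every library of 10 and 11 above every library of 35B and 35C. Egr1 had a mean of 35.8 RPM in 10 and 11 and 6.36 in 35B and 35C, a ratio of 5.64 (difference -1.25, standard error 0.14, limma adjusted p = 1.02e-06), and 35B lay above 35C with and without vitC. Etv4 had 15.6 against 9.02, a ratio of 1.73 (difference -0.34, standard error 0.07, limma adjusted p = 0.000868), and overlapped between sets because it was lower with vitC in each. Spry2 had 125 against 108, a ratio of 1.16 (difference -0.19, standard error 0.06, limma adjusted p = 0.0200). This was the weakest of the calls, and it was lost without the control library of culture 10 or 35C or the vitC library of 11 or 35C (limma adjusted p = 0.0578 to 0.114). Dusp6 had 27.9 against 27.8 (difference -0.02, 95% interval -0.16 to 0.12, limma adjusted p = 0.846). Etv5 had 346 against 374 (difference 0.09, 95% interval -0.03 to 0.21, limma adjusted p = 0.239) and Spry4 had 25.5 against 23.1 (difference -0.13, 95% interval -0.36 to 0.11, limma adjusted p = 0.389). Without the vitC library of 35B, Spry4 had a difference of -0.27 and passed the threshold (limma adjusted p = 0.0338).

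Other targets of the 2 pathways were read from lists chosen by function. Of 15 further WNT targets, 12 passed the filter, and 8 of these had reads in all 8 libraries. The other 4 (Cdx4, Mixl1, Nkd1 and Rnf43) lacked reads in some library, and a gene can pass the filter through the set where it is high, so they are left out of the counts. All 8 were lower in 35B and 35C, against 21.9% of all 12917 genes with reads in all 8 libraries. Counted with the 4 WNT genes above, 12 of 12 were lower. In 11 of them every library of 10 and 11 was above every library of 35B and 35C, a separation that 2115 of the 12917 genes showed. Sp5, a repressor that WNT induces, had a mean of 197 RPM in 10 and 11 and 48.1 in 35B and 35C (difference -1.62, limma adjusted p = 2.69e-10). Cdx2, a caudal factor like Cdx1, had 18.3 against 1.59, and Tnfrsf19, a receptor gene, had 91.1 against 36.3. Rnf43, a ligase that removes WNT receptors, had 4.46 against 0.0527, and Nkd1, an inhibitor that binds Dishevelled, had 2.26 against 0.313. Tcf7, a TCF/LEF factor, had 85.4 against 54.1 (difference -0.50, limma adjusted p = 3.8e-07). Mixl1 had 0.396 against 0.611 RPM and was not called.

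Of 21 further ERK targets, 18 were tested, and 8 were lower and 5 higher in 35B and 35C, against 21.5% and 18.9% of all genes, with a median difference of -0.06. Ccnd1, the cyclin D1 gene and also a WNT target, had 417 against 192 RPM (difference -1.04, limma adjusted p = 3.12e-10). The immediate-early factors were not alike: Fos had 12.8 against 3.81 and Jun had 15.5 against 5.33, both called lower, while Junb, with 17.7 against 23.9, and Ier2, with 83.2 against 103, were called higher. Spred1, an inhibitor of RAS signalling related to the Sprouty genes, had 135 against 81.3, and Spry1 had 13.2 against 9.29, both called lower. The FGF inhibitor gene Il17rd, with 166 against 121, was called lower too. In all 3, every library of 10 and 11 was above every library of 35B and 35C. With the ERK arm included, 8 of 24 tested genes separated this way and 5 in reverse, against 16% and 16.3% of all genes. Myc had 12.4 against 17.1, called higher. Dusp4, a phosphatase related to Dusp6, had 2.30 against 1.87 (limma adjusted p = 0.535).

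Of 17 upstream genes of the WNT cascade, 9 were lower and 2 higher (median difference -0.14), against 21.5% and 18.9% of all genes. β-catenin itself (Ctnnb1) had 1206 against 934 RPM (difference -0.37, limma adjusted p = 1.53e-06), Apc had 277 against 195, Bcl9l, a co-activator of β-catenin, had 63.4 against 41.5, and Tcf7l2, another TCF/LEF factor, had 25.6 against 16.3. Gsk3b, the target of CHIR-99021, had 174 against 146 (difference -0.24, limma adjusted p = 0.000534). Tcf7l1, which represses WNT targets in mESCs, had 56.9 against 57.9 (limma adjusted p = 0.922). Of 24 WNT ligands and receptors, 16 were detected in all 8 libraries, and 4 of these were lower and 2 higher. Over all 12917 genes with reads in all 8 libraries, 21.9% were lower and 20.9% higher. Wls, which carries WNT ligands out of the cell, had 24.6 against 10.4, Fzd10, a WNT receptor, had 154 against 96.2, and the co-receptor gene Lgr4 had 89.6 against 146. The ligand gene Wnt8a, without reads in some library, had 2.57 against 0.256.

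On the ERK side, 4 of 18 tested cascade genes were lower and 6 higher in 35B and 35C (median difference 0.03), where 21.5% of all genes were lower and 18.9% higher. Of 5 ligand and receptor genes detected in all 8 libraries, 1 was lower and 1 higher, against 21.9% and 20.9% of all 12917 genes so detected. Fgf4, the main FGF of mESCs, had 279 against 305 RPM (limma adjusted p = 0.166). The FGF receptor gene Fgfr1 had 163 against 146, called lower, while Fgf17 had 1.40 against 5.33, called higher. Fgf5 had 0 in every library of 10 and 11 against 0.403 on average, and since it passed the filter only through 35B and 35C, its call is not used. Mapk3, which encodes an ERK, had 44.1 against 54.0 and was called higher. Of the cascade genes with the largest differences, the RAS activators Sos2, with 8.25 against 4.36, and Sos1, with 128 against 104, were called lower, while Map2k2, which encodes a MEK, with 120 against 149, and Nras, with 174 against 212, were called higher.

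**Figure D3:**
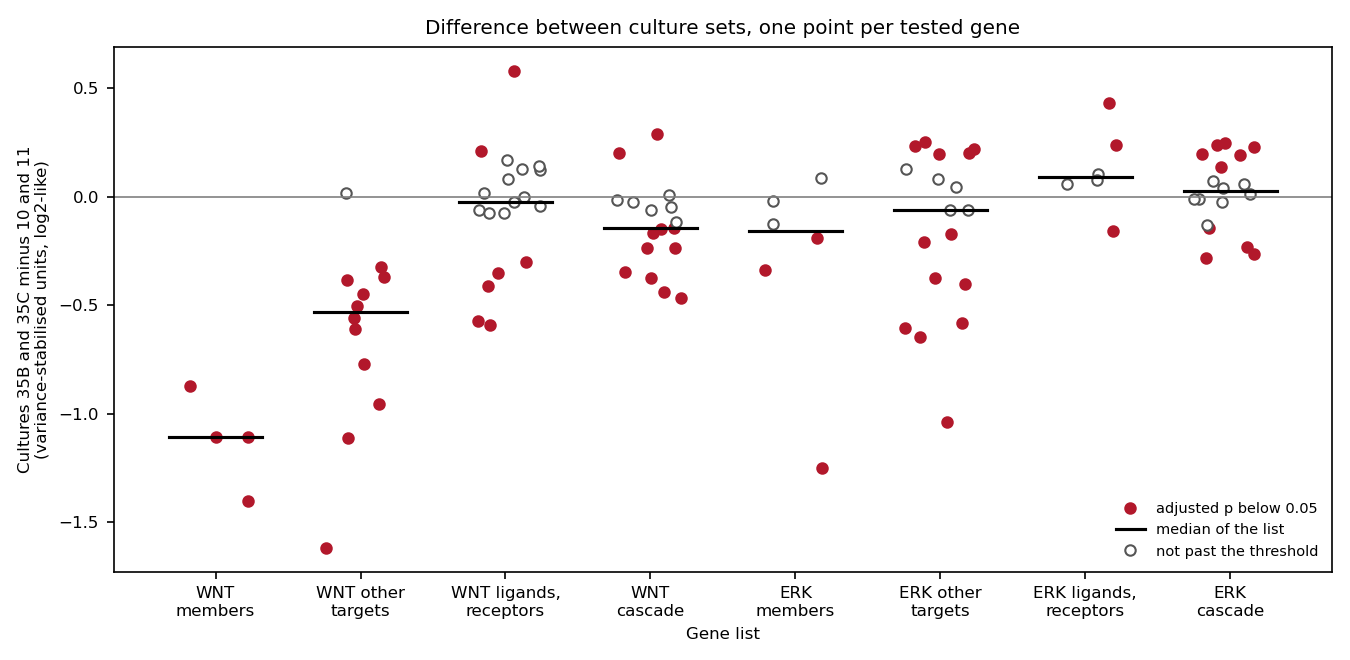
Difference between cultures 35B and 35C and cultures 10 and 11 in variance-stabilised units, with 1 point per tested gene in each list, red where the limma adjusted p was below 0.05, and a bar at the list's median. Points and bars include genes without reads in some library, such as Rnf43, Nkd1, Cdx4, Wnt8a and Fgf5, whose calls are not counted. The 12 WNT genes and targets with reads in all 8 libraries lie below 0, while each ERK list has points on both sides of 0.

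Cell type markers were compared between the sets as levels. ESC markers summed to 5333 to 5951 RPM in 10 and 11 and 5518 to 5834 in 35B and 35C, and primed epiblast markers to 381 to 411 and 406 to 478. Primitive streak markers, a list without T, summed to 7.46 to 8.86 in 10 and 11 and 9.24 to 13.6 in 35B and 35C. Most of this sum was Eomes, at 5.19 to 10.3 RPM in control and 4.63 to 6.86 with vitC, and Mesp1 was at 0 in all. Fibroblast markers summed to 5.20 to 14.4 and 11.4 to 16.8. The part of these cells in the differences was not tested.

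With vitC, none of the genes in these wider lists passed the unpaired fit. With the block, in which 6.36% of all genes were higher and 4.44% lower, 2 of 12 other WNT targets were higher and 1 was lower (median difference 0.02, against 0.00 over all genes). Apcdd1, a membrane inhibitor of WNT, had 12.5 ± 5.23 RPM in control and 20.8 ± 7.83 with vitC (SD, n = 4; difference 0.35, limma adjusted p = 0.00229). Sp5 had 102 ± 65.2 and 143 ± 108 (difference 0.32, limma adjusted p = 0.00333), and both genes were higher in 4 of 4 pairs. Notum, a secreted enzyme that inactivates WNT ligands, had 82.1 ± 15.6 and 63.5 ± 14.1 (difference -0.27, limma adjusted p = 0.000688), lower in each pair. Nkd1 (limma adjusted p = 0.561) and Tcf7 (limma adjusted p = 0.957) were not called. So Axin2 and Sp5 were past the threshold in 1 direction and Notum in the other, although all 3 are WNT-induced genes.

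Among 18 other ERK targets, 3 were higher and 1 was lower with vitC in the paired fit, against the same 6.36% and 4.44% of all genes. Spred1 had 95.7 ± 24.0 and 120 ± 43.4 RPM in control and vitC (SD, n = 4; difference 0.25, limma adjusted p = 0.00484). Il17rd, a membrane inhibitor of FGF signalling, had 134 ± 26.9 and 154 ± 27.9 (limma adjusted p = 0.00601). Etv1, the third ETS factor of the Etv4 and Etv5 family, had 14.5 ± 4.13 and 20.2 ± 4.17, higher in 4 of 4 pairs (difference 0.24, limma adjusted p = 0.00748), opposite in direction to Etv4. Ccnd1 had 325 ± 136 and 284 ± 128 (difference -0.18, limma adjusted p = 0.00770), lower in each pair. Fos (limma adjusted p = 0.0838), Myc (limma adjusted p = 0.708), Dusp4 (limma adjusted p = 0.919) and Spry1 (limma adjusted p = 0.803) were not called.

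Upstream, Fgfr1 was higher with vitC in 4 of 4 pairs, at 141 ± 12.5 and 168 ± 8.84 RPM (SD, n = 4; difference 0.22, limma adjusted p = 0.000952 with the block, 0.419 without), and was the 1 called of 6 tested ligands and receptors. The counts in the upstream lists stand against the same shares of all genes, 6.36% higher and 4.44% lower. Of 18 tested ERK cascade genes, 2 were higher, among them the kinase gene Rps6ka1 (211 ± 9.12 and 239 ± 3.79). 2 were lower, Nras (208 ± 25.9 and 178 ± 18.5) and the MEK gene Map2k1 (121 ± 5.10 and 105 ± 5.62). Of 17 WNT cascade genes, 3 were higher and none lower: Bcl9l, with a difference of 0.27, Apc, with 0.18, and Axin1, the constitutive relative of Axin2, with 0.15 (limma adjusted p = 0.0225). Ctnnb1 (limma adjusted p = 0.150) and Gsk3b (limma adjusted p = 0.0676) were not called. Of 19 tested WNT ligands and receptors, Fzd7 was higher (difference 0.21, limma adjusted p = 0.00429), while Lgr4 (difference -0.26, limma adjusted p = 0.00106) was lower. Wnt5a, at 1.42 ± 0.72 and 0.352 ± 0.285 RPM, was lower too (limma adjusted p = 0.0460). It lacked reads in some library, and a gene can pass the filter through the group where it is high, so its call is not used.

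The hESC libraries show the same genes in cells without the inhibitors. With 1 library per condition there is no test, and intervals cover counting error only. DUSP6 had 1484 reads (96.6 RPM) in control and 1961 reads (114 RPM) with vitC, a log2 ratio of 0.24 (95% exact binomial interval 0.14 to 0.34). AXIN2 had 1218 and 1488 reads, a log2 ratio of 0.13 (95% interval 0.02 to 0.24), whose lower bound was about 0 (-0.00053) when libraries were scaled by the median ratio of genes. SPRY2 had 1185 and 1234 reads, a log2 ratio of -0.10 (95% interval -0.22 to 0.01), and with the other scaling -0.12 (95% interval -0.24 to -0.0045). ETV4, the gene that fell in mESCs, had 749 and 921 reads, a log2 ratio of 0.14 (95% interval -0.004 to 0.28).

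For the next 5 genes the interval held 0. SPRY4 had 762 and 806 reads (log2 ratio -0.08), ETV5 458 and 465 (-0.14), EGR1 493 and 504 (-0.13), and LEF1 341 and 344 (-0.15). T had 7 and 15 reads, a log2 ratio of 0.94 (95% interval -0.44 to 2.47). CDX1 had 0 reads in control, where a count of 0 allows up to 3 reads (0.195 RPM), and 11 reads with vitC. That is at least 3.28-fold higher against this floor with the 11 reads taken as they are, and the lower 95% limit of the ratio from the exact binomial interval was 2.24.

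Ranks within a library allow the species to be set side by side, although species, cell state, medium and RNA fraction (polyA RNA in human, total RNA in mouse) cannot be told apart. By reads per kb of exon, DUSP6 was at the 84.4 percentile of genes with reads in the hESC control and between 50.1 and 57.2 in the mESC controls. SPRY4 was at 65.5 against 35.3 to 44.3, ETV4 at 78.0 against 39.0 to 54.4, and EGR1 at 66.0 against 15.8 to 54.8. So 4 of the 6 ERK genes ranked higher in hESCs, but the share of all genes that did so was not counted. ETV5 was the reverse, at 57.5 against 93.3 to 94.5, and SPRY2 was at 83.5 against 84.9 to 88.9. In the WNT arm, AXIN2 (78.9) and LEF1 (51.8) lay within the mESC ranges of 77.9 to 91.3 and 29.5 to 63.5, T (13.8) lay below 17.7 to 52.9, and CDX1 had no reads. Without division by length, SPRY2 moved to just above the mESC range, AXIN2 to below it and T to within it.

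**Figure D4:**
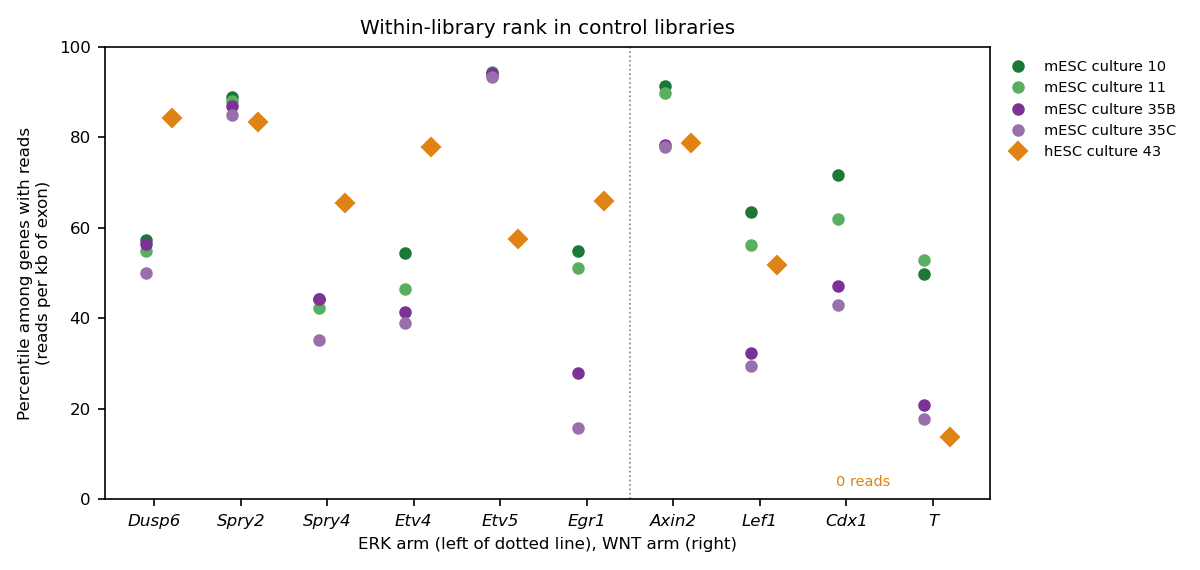
Percentile of each gene among genes with reads, by reads per kb of exon, in the 4 mESC control libraries (circles, 2i) and the hESC control library (diamond, bFGF medium). DUSP6, SPRY4, ETV4 and EGR1 rank above all 4 mESC controls and ETV5 far below them, while the WNT genes of 35B and 35C lie below those of 10 and 11.

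The genes most like Dusp6 and Axin2 across the 8 mESC libraries were found as a description, by the root mean square difference of values centred on each gene's mean, among 12917 genes above the lowest value in all 8. For Axin2 these were Frmd4b (0.06), Slc44a5 (0.06) and Creb3l2 (0.09), against a spread of Axin2 itself of 0.57. Frmd4b stood at 63.2 to 93.6 RPM in 10 and 11 and 19.5 to 23.8 in 35B and 35C. For Dusp6 they were Dcaf10 (0.04), Wdr90 (0.04) and Naaladl1 (0.05), against a spread of Dusp6 itself of 0.10. Dcaf10 stood at 22.8 to 24.0 RPM in 10 and 11 and 19.4 to 28.3 in 35B and 35C.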

How the data were processed

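RNA-seq was measured in 8 mESC and 2 hESC libraries. Per the labels and the study's methods, ribosomal RNA was depleted or mRNA isolated (the labels give total RNA for mESCs and polyA RNA for hESCs), and reads were mapped to mm10 or hg38 and counted with SQuIRE. The submitters' processing notes also name Trim Galore, HISAT2 and DESeq2, whose versions are not given in the sources used here. The gene values deposited are on a log2-like scale, after a variance-stabilising transformation by the authors. For repeats, the authors deposited expected counts, which served here only for the share of ribosomal repeats. Inverting the transformation gave whole reads for 100% of the 116385 mESC values above the lowest (tolerance 0.01), taking the smallest step in each library as 1 read. The number of per-sample columns of the gene tables that were not matched to a sample was 0.

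limma 3.58.1 (R 4.3.3; lmFit, eBayes with trend) was fitted to genes that exceeded the lowest value of the table in 4 or more mESC libraries, with Benjamini-Hochberg adjustment over all of them and a threshold of 0.05. Recovered reads were tested with edgeR 4.0.16 (TMM, quasi-likelihood) and DESeq2 1.42.0 as alternatives. The numbers pair the libraries, since a control and a vitC library of one number carry 1 culture name. After subtracting each group's mean, such pairs correlated at 0.626 to 0.765 over genes. Control and vitC libraries of different numbers in the same culture set correlated at 0.574 to 0.665. These values thus mainly reflect the culture set and tell little about the pairing by number. The main design has no block because the methods name none. Replicates differed beyond sampling noise, with a chi-square per gene of 1.91 to 3.16 within a culture set and 9.01 to 16.7 between the sets. On simulated data for the vitC comparison (log2 changes of 1.5 in 200 of 14870 genes), limma without the block recovered 99.5% of the changed genes and 3.86% of its calls were false. The simulated libraries held no differences between cultures, unlike the real ones, and the fit with the block was not simulated. These 2 shares therefore do not describe the paired fit. The genes described here changed less with vitC: edgeR with the block put their log2 fold changes between -0.64 (Etv4) and 0.37 (Cdx1). Recovery of changes of that size was not tested.

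For hESCs, exact Clopper-Pearson limits at 95% were used. Intervals cover counting error only, because no molecular identifiers separate PCR copies. Exon lengths are those of GENCODE for GRCm38 and GRCh38, where human T is annotated as TBXT. The members and lists were chosen with earlier results of these data known. Genes named are the 10 members, up to 4 genes per list past the threshold in the vitC fit (or, with none, in the blocked fit) and in the culture fit by largest difference, and a short set of pathway genes. Junb and Ier2 were added after their values were seen. A few genes that this rule names are not reported here. Alternatives were other filters, eBayes without trend, quantile normalization, the count tests, the block, culture sets alone and each library left out; the block combined with quantile normalization, with each pair left out, or with edgeR in the interaction, ranks without length, and list counts over genes with reads in all 8 libraries, were added after seeing the data.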

Additional observations from a re-analysis of the deposited data

How the results depend on the processing

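The vitC comparison depends on pairing. For all genes, 50 were past the threshold, with 28 when genes had to be above the lowest value in all 8 libraries, 122 in DESeq2, 1581 with the replicate block, 1947 with the block in edgeR and 1695 with the block after quantile normalization. Leaving out 1 library gave 19 to 32, and with the block leaving out 1 pair gave 870 to 1290. Of the 10 genes described here, 0 were past it without the block over both culture sets, and 1, Spry2, without the block in cultures 10 and 11 only. With the block there were 3, 5 in edgeR, 3 after quantile normalization, and 2 to 4 when a pair was left out. For the culture sets, 5924 genes were past the threshold, with 2471 in control libraries only and 3219 in vitC libraries only, and 7 of the 10 were, with 6 and 5. The interaction gave 0 genes, 13 with the block and 35 with the block in edgeR.

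No call of a culture set difference turned its direction, and the 3 calls of the paired vitC fit kept theirs without any 1 pair. Differences past no threshold changed sign in some cases. Leaving out 1 library without the block gave vitC differences of -0.015 to 0.090 for Dusp6, -0.067 to 0.17 for Spry4, -0.38 to 0.28 for Egr1, -0.0090 to 0.46 for Axin2, -0.14 to 0.43 for Lef1, -0.076 to 0.35 for Cdx1 and -0.17 to 0.26 for T, and a culture set difference of -0.063 to 0.062 for Dusp6. Leaving out 1 pair with the block gave -0.011 to 0.096 for Dusp6, -0.13 to 0.078 for Egr1 and -0.00063 to 0.056 for T. Within cultures 10 and 11 only, vitC gave -0.036 for Dusp6 and -0.0024 for Spry4, and within 35B and 35C only 0.13 for Egr1, -0.032 for Lef1 and -0.0098 for T. Among vitC libraries only, the culture set difference of Dusp6 was 0.074. Of 160 alternative values for the culture set differences, 149 kept their direction and side of the threshold, and all 40 for the interaction did. Depth limits T, Egr1 and Etv4 most, with as few as 4, 9 and 26 reads in a library.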
